A study of Mus musculus with 15 samples.

Results

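The complement system is described here through 9 of its genes, C3, Cfb, C4b, C1ra, C1s1, Masp1, Serping1, Cd55 and C3ar1, in mouse embryonic fibroblasts (MEFs) treated by 4 cytokines. They were chosen by name, as the array's probes whose identifier is a RefSeq transcript of one of these genes, and are 9 of the 23462 genes that had a probe. They had 15 probes in all, and 7 of the 9 genes had a representative probe bright enough to be tested, among 13528 such genes. The MEFs were Balb/c 3T3 cells, clone A31, an established line that is 1 clone of immortalised fibroblasts. Each of the 5 groups held 3 one-colour arrays. The control cells received no cytokine. The other groups received recombinant TNFα at 10 ng/ml, recombinant TGFß1 at 5 ng/ml, IL-1ß at 1 ng/ml, or IL-6 at 20 ng/ml together with its soluble receptor sIL-6Rα at 25 ng/ml. Culture lasted 24 or 72 h per the labels. The methods give 24 h for the TNFα and TGFß1 arrays, and the time of the IL-1ß and IL-6/sIL-6Rα arrays is not given in the sources used here.

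Complement is a cascade of plasma and cell-surface proteins that marks targets and recruits leukocytes. The classical pathway starts with C1 and its proteases C1r and C1s, of which C1s cleaves C4 and C2. The lectin pathway uses the MASP proteases for the same step, and the alternative pathway amplifies C3 cleavage through factor B and factor D. C3 is the point where the routes meet, and it is restrained by soluble inhibitors such as C1 inhibitor and by membrane proteins such as CD55. The liver makes most plasma complement, and fibroblasts are known to make several components locally.

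A level below is the log2 signal of a probe minus the 75th percentile of its array, so that 0 is the 75th percentile and each unit is a doubling, and levels of different probes are not set against each other. Arrays are named by condition and by the number that opens their label. A gene was called when its q-value (Benjamini-Hochberg adjusted p of limma over 29333 tested probes) was below 0.05 and its absolute fold-change was at least 1.5. The brightest probe represents a gene. The arrays lay on 2 slides, with every group on both, and the label numbers form 3 runs (1 to 5, 6 to 10 and 11 to 15) with 1 array of every group in each. Where a fit with slide and run as blocks changed the call of a value below, its q-value is given beside it. The 75th percentile signal ran from 325 to 445 per array, 48.3% to 54.8% of probes were well above background, and levels correlated at r = 0.987 to 0.991 between replicates on the same slide and at 0.981 to 0.987 between replicates on different slides. All 8 fibroblast markers (among them Col1a1, Pdgfra and Thy1) were well above background on every array. Of 8 leukocyte markers Ptprc, Adgre1, Lyz2 and Cx3cr1 were on none and Csf1r, Cd68, Itgam and Cd14 on all. The summed linear level of the list, relative to the 75th percentile, ran from 10.8 to 22.4 in the control and from 11.4 to 24.8 in the treated groups. Of these markers Itgam read 3.16 to 3.37 on slide 1 and 4.26 to 4.48 on slide 2 over all groups, so the range of the sum holds a difference between slides. The hepatocyte markers Alb, Apoa1 and Ttr were on no array. Of 4 epithelial markers none was on every array and Cdh1 was on none. Their summed linear level was 0.221 to 0.590 on the TGFß1 arrays, above the 0.0623 to 0.191 of the control and without overlap, against 0.0444 to 0.0729 with TNFα, 0.0510 to 0.149 with IL-1ß and 0.0422 to 0.170 with IL-6/sIL-6Rα, and their part in the TGFß1 results was not tested. As these are bulk samples, fewer cells of a type and less RNA per cell cannot be told apart.

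MEFs treated by TNFα had higher C3, Cfb and Serping1 and lower Cd55. MEFs treated by TGFß1 had lower C3, C1ra, C1s1 and Cd55 and no higher member. IL-1ß was accompanied by higher C3 and Cfb, and IL-6/sIL-6Rα by no called member. For TNFα this was 3 of 7 tested members higher and 1 lower, against 4.09% and 5.96% of all tested probes. Of the 3, Serping1 entered the test only through the TNFα and IL-1ß arrays, where it is high. For TGFß1, 4 of 7 were lower and 0 higher, against 10.4% and 7.51%. For IL-1ß, 2 of 7 were higher and 0 lower, against 0.228% and 0.00341%. For IL-6/sIL-6Rα, limma called 0 of 7 against 0.058% of probes higher and 0% lower, with 2 of 7 members, C4b and Cfb, at an unadjusted p below 0.05. The median log2 fold-change of the tested members was 0.62 for TNFα, -2.13 for TGFß1, 0.81 for IL-1ß and 0.46 for IL-6/sIL-6Rα, while the median over all tested probes was 0.04, 0.07, 0.00 and 0.00. With Serping1, whose control level was below background, set at its lower bound the TNFα and IL-1ß medians of the members stay the same. The 4 comparisons share the 3 control arrays and are not independent of each other.

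**Figure D1:**
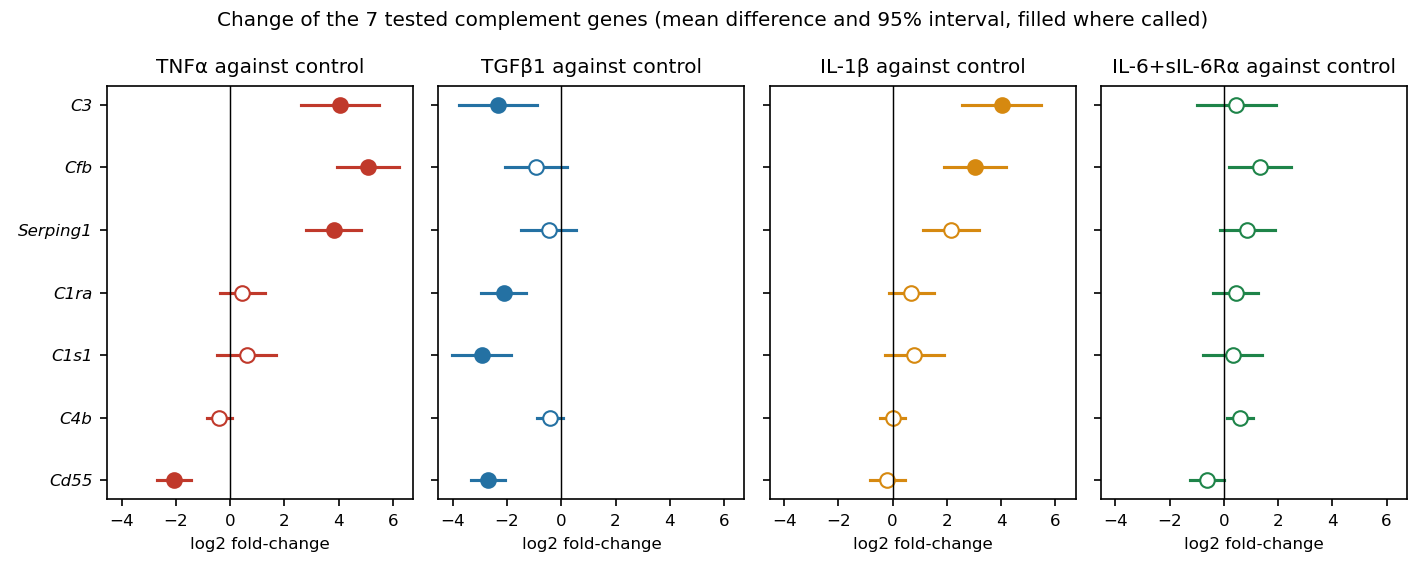
Log2 fold-change (x axis) of the 7 tested complement genes (y axis) for each cytokine against control, as the difference of 3 against 3 arrays with its 95% interval from limma. Filled points were called, open points were not. The TNFα panel has C3 at 4.05, Cfb at 5.10 and Cd55 at -2.06, and the Serping1 points rest on a control signal that was not well above background. The points of the TGFß1 panel lie at or left of -0.43. There the intervals of the uncalled Cfb, Serping1 and C4b reach up to 0.20, 0.56 and 0.04.

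C3, the protein on which all complement routes converge, moved in opposite directions with TNFα and TGFß1. Its representative probe (A_51_P110301, NM_009778) read 0.92, 1.76 and 2.57 on control arrays 1, 11 and 6. It read 5.07, 5.73 and 6.61 on TNFα arrays 4, 14 and 9. The TNFα arrays were all above the control arrays, and the difference was 4.05 on the log2 scale (SE 0.66, q = 0.00177 by limma), a 16.6-fold change. IL-1ß arrays 5, 15 and 10 read 4.70, 5.66 and 6.95, likewise all above control, with a log2 fold-change of 4.02 (q = 0.0272). TGFß1 arrays 7, 2 and 12 read -1.11, -0.53 and -0.14, all below control, and C3 fell by 2.35 on the log2 scale (SE 0.66, q = 0.0225), 5.08-fold. IL-6/sIL-6Rα arrays 3, 13 and 8 read 1.31, 1.86 and 3.47, which overlapped the control range (log2 fold-change 0.46, 95% interval -0.98 to 1.90, q = 1.00).

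The levels of C3 thus ordered as TGFß1, control, IL-6/sIL-6Rα, then IL-1ß and TNFα. The neighbours control and IL-6/sIL-6Rα, and IL-1ß and TNFα, did not differ beyond their spread. IL-1ß minus TNFα was -0.04 with a 95% interval of -1.48 to 1.41 (q = 0.983), wide enough to hold more than a doubling either way. C3 was higher with IL-1ß than with IL-6/sIL-6Rα by 3.55 (q = 0.0419). The second C3 probe (A_55_P2038525) gave 3.76 for TNFα and 3.78 for IL-1ß, both called, and -1.48 for TGFß1 (q = 0.105), not called, but called with slide and run as blocks (q = 0.0152). Within slide 1 and slide 2 the log2 fold-change of C3 was 4.39 and 3.27 for TNFα, -2.45 and -2.91 for TGFß1, 4.48 and 3.08 for IL-1ß, and 1.05 and -0.71 for IL-6/sIL-6Rα, so that only the last turned with the slide. Within the 3 runs the TNFα difference of C3 was 4.15, 4.03 and 3.97. The IL-1ß call of C3 was lost without any 1 of 6 arrays (control 1 or 11, IL-1ß 10 or 15, TGFß1 2, TNFα 14), with a log2 fold-change of 3.43 to 4.07 and q of 0.0529 to 0.135. The TGFß1 call was lost without control 6 or 11 or TGFß1 2 or 7, at -1.93 to -2.37 and q of 0.0563 to 0.0869.

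**Figure D2:**
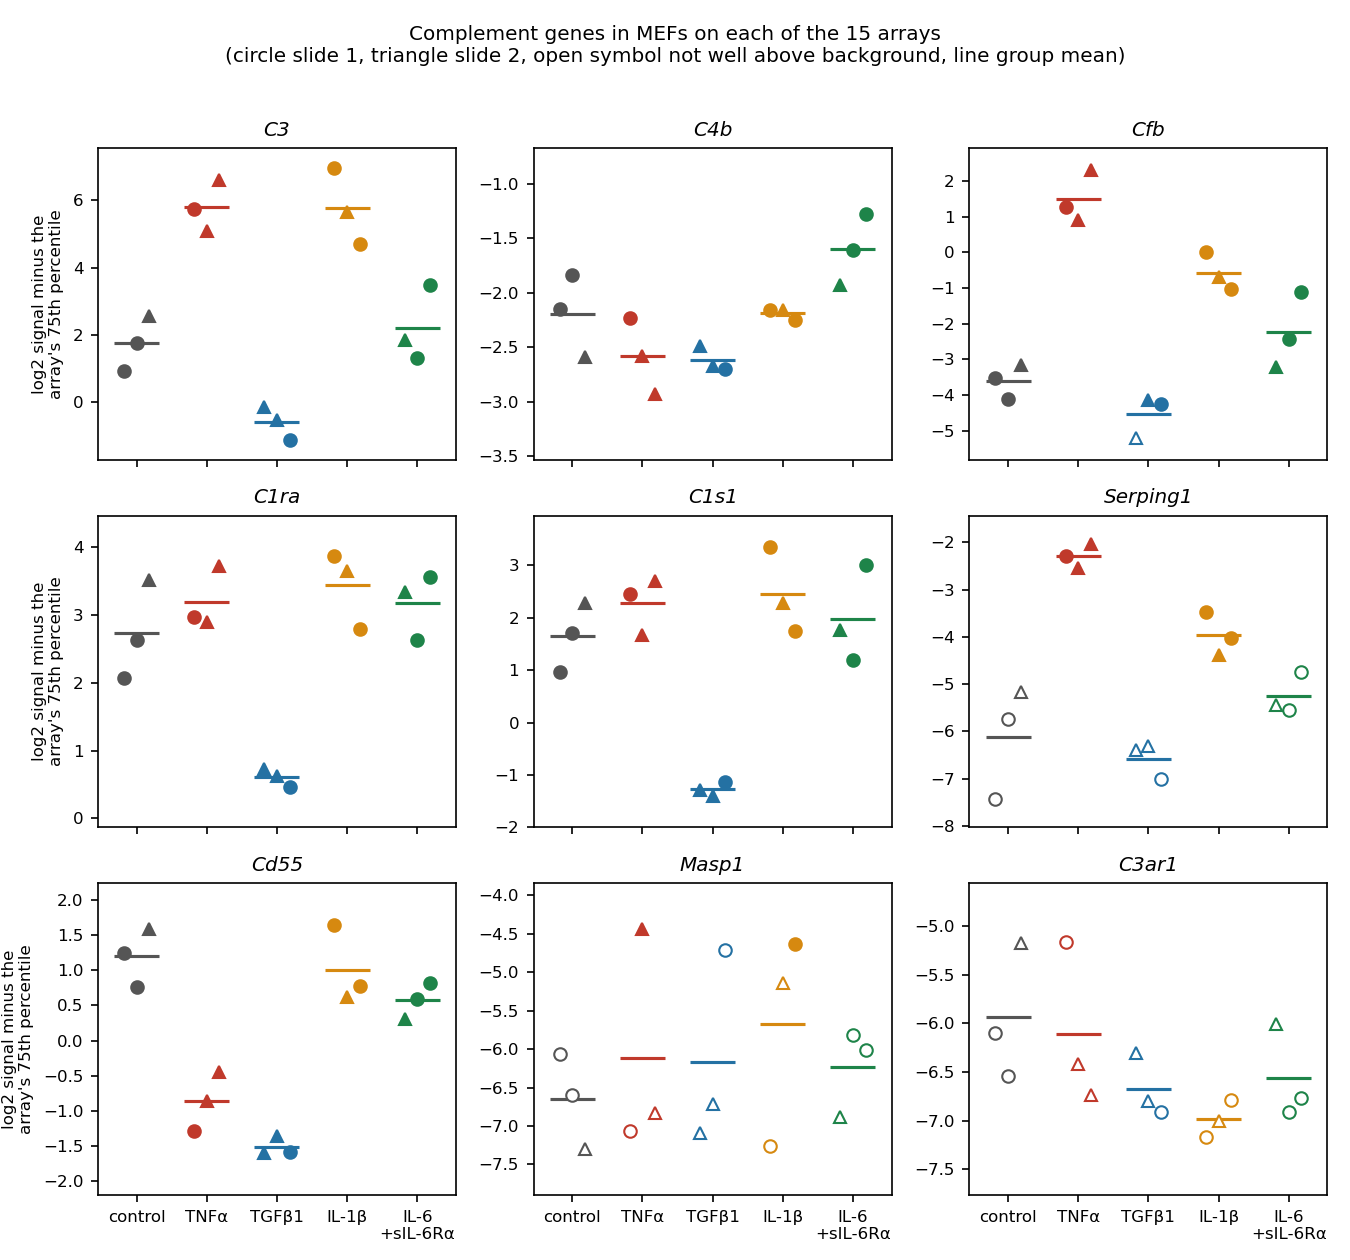
Level of each of the 9 complement genes (y axis, log2 signal of the representative probe minus the array's 75th percentile, each panel with its own scale) on the 3 arrays of each group (x axis). Lines are group means, circles and triangles are slides 1 and 2, and open symbols are arrays on which the probe was not well above background. C3 on TNFα and IL-1ß arrays lies at 4.70 or above, over every control array, and Masp1 and C3ar1 are open on nearly all arrays.

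The promoter of C3 is shown because its gene is the member that was called in both directions. It is taken from RefSeq (GRCm38.p6) at chr17:57228087-57228386 on the minus strand, 5′ to 3′ in the sense of the gene, from 250 bases before the start site to 50 bases from it. Capitals mark matches to the letters of 5 motifs, searched on both strands: kappaB GGGNNNNNCC, C/EBP TTNNGNAA, STAT TTCNNNGAA, ISRE GAAANNGAAA and AP-1 TGANTCA.
C3: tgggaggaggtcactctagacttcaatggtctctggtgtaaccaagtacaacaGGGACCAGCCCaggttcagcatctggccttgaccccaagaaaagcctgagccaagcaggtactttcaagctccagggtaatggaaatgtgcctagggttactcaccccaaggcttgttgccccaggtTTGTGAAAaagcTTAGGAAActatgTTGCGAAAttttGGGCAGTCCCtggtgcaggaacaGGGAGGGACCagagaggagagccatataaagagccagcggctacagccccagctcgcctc
The window held 3 C/EBP matches, at -70 to -63, -58 to -51 and -45 to -38 from the start site, and 4 kappaB matches, of which those at -197 to -188 and -196 to -187 overlap. Of the 32851 promoters in the table, 40.7% held a C/EBP match, 3.6% held 3 or more, 50.8% held a kappaB match and 13.6% held 3 or more. STAT, ISRE and AP-1 letters were in 8.3%, 3.44% and 7.81% of promoters and not in this window. A match is a run of letters, and binding was not measured.

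Cfb, factor B, which supplies the protease of the alternative pathway convertase, rose with TNFα and with IL-1ß. Its probe (A_51_P413866, NM_008198) read -4.10, -3.52 and -3.16 on control arrays 11, 1 and 6. With TNFα it read 0.92, 1.26 and 2.32 on arrays 4, 14 and 9, which is 34.2-fold above control (log2 fold-change 5.10, SE 0.53, q = 6.25e-05). IL-1ß arrays 5, 15 and 10 read -1.02, -0.70 and 0.02. These lay between the control and the TNFα arrays without touching either range. The log2 fold-change of Cfb with IL-1ß was 3.03 (q = 0.0394), and IL-1ß was below TNFα by -2.07 (q = 0.0394), both called. Thus, C3 did not differ between IL-1ß and TNFα beyond its spread, while Cfb did; whether that difference is itself unequal between the genes was not tested.

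TGFß1 arrays 12, 7 and 2 read -5.22, -4.25 and -4.13 for Cfb, all below control, with a log2 fold-change of -0.94 (95% interval -2.08 to 0.20, q = 0.222) that was not called, but was with slide and run as blocks (q = 0.0484). On array 12 the probe was not well above background. IL-6/sIL-6Rα arrays 13, 3 and 8 read -3.20, -2.43 and -1.10, of which the first fell within the control range (log2 fold-change 1.35, q = 1.00). A second probe for another transcript of Cfb (A_66_P138911, NM_001142706) was not well above background on any control array. By that probe Cfb was at least 15.5-fold higher with TNFα (q = 4.2e-05) and at least 3.97-fold higher with IL-1ß (q = 0.0238), where the floor is the lowest signal of any probe well above background on the control arrays. This second probe entered the test only through the TNFα and IL-1ß arrays, and its q-values rest on the dim control signal. The within-slide log2 fold-changes of Cfb were 5.08 and 4.78 for TNFα and 3.31 and 2.46 for IL-1ß. The IL-1ß call was lost without any 1 of 11 arrays (control 1, 6 or 11, IL-1ß 5, 10 or 15, IL-6/sIL-6Rα 3, TGFß1 2 or 7, TNFα 4 or 14), at 2.73 to 3.25 and q of 0.0512 to 0.207. The call of IL-1ß against TNFα was lost without any 1 of 10 (control 1, IL-1ß 5, 10 or 15, IL-6/sIL-6Rα 3, TGFß1 2 or 7, TNFα 4, 9 or 14), at -1.66 to -2.37 and q of 0.0511 to 0.144.

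Serping1 encodes C1 inhibitor, the serpin that inactivates C1r, C1s and the MASP proteases. Its only probe (A_55_P1992889, NM_009776) was well above background on the 3 TNFα and the 3 IL-1ß arrays and on no other. TNFα arrays 4, 14 and 9 read -2.54, -2.29 and -2.04, and IL-1ß arrays 15, 5 and 10 read -4.38, -4.02 and -3.47. The control arrays 1, 11 and 6 read -7.43, -5.74 and -5.16, none of them well above background. Serping1 was at least 5.77-fold higher with TNFα than in the control (q = 0.000215 by limma). That q-value rests on control signals not well above background. The probe entered the test only through the TNFα and IL-1ß arrays, where it is high. With IL-1ß Serping1 was at least 1.82-fold higher in level, but the test did not call it (q = 0.140, and 0.0461 with slide and run as blocks). Both bounds hold for the processing used here only. Over the alternative settings that did not leave out 1 array, the log2 fold-change of Serping1 was as low as 1.09 with TNFα and 0.33 with IL-1ß. TGFß1 arrays read -7.01 to -6.32 and IL-6/sIL-6Rα arrays -5.56 to -4.73, none of them well above background. The IL-1ß arrays were all below the TNFα arrays, with a difference of -1.67 (95% interval -2.69 to -0.65, q = 0.0608) that was not called, but was with slide and run as blocks (q = 0.0270).

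C1ra and C1s1, which encode the proteases that C1 activates in turn, fell with TGFß1 and were not called with the other cytokines. C1ra (A_51_P384318, NM_023143) read 2.07, 2.63 and 3.51 on control arrays 1, 11 and 6 and 0.47, 0.63 and 0.73 on TGFß1 arrays 7, 2 and 12. The groups did not overlap, and C1ra fell by 2.13 on the log2 scale (SE 0.38, q = 0.00186), 4.37-fold. C1s1 (A_55_P2042612, NM_144938) read 0.96, 1.71 and 2.28 on the same control arrays and -1.40, -1.30 and -1.13 on TGFß1 arrays 2, 12 and 7. It fell by 2.93 (SE 0.50, q = 0.00131), 7.62-fold. Within slide 1 and slide 2 the log2 fold-change was -1.88 and -2.83 for C1ra and -2.47 and -3.63 for C1s1.

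On TNFα arrays C1ra read 2.89 to 3.73 and C1s1 1.68 to 2.70, both overlapping control. Their log2 fold-changes were 0.46 (95% interval -0.37 to 1.29, q = 0.497) and 0.62 (-0.46 to 1.71, q = 0.479). With IL-1ß they were 0.70 and 0.81, and with IL-6/sIL-6Rα 0.44 and 0.33 (q = 1.00 for all 4), and of these C1ra with IL-1ß was called with slide and run as blocks (q = 0.0420). Each of TNFα, IL-1ß and IL-6/sIL-6Rα was above TGFß1 for both genes, by 2.57 to 2.83 for C1ra and by 3.26 to 3.74 for C1s1, and all 6 differences were called. The order of the levels was therefore TGFß1 below the other 4 groups, which did not differ among themselves beyond their spread.

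The pair lies side by side on chromosome 6 in the order C1rl, C1ra, C1s1, C1rb, and the promoters of both are shown because the genes fell together. C1ra is at chr6:124512371-124512670 on the plus strand and C1s1 at chr6:124542310-124542609 on the minus strand (RefSeq, GRCm38.p6, same window and capitals as for C3).
C1ra: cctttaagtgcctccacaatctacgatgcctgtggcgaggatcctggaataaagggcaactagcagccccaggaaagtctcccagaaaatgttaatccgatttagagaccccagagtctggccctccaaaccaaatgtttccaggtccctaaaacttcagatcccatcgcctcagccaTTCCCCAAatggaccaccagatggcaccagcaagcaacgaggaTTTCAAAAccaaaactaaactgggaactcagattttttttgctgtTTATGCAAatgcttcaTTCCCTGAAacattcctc
C1s1: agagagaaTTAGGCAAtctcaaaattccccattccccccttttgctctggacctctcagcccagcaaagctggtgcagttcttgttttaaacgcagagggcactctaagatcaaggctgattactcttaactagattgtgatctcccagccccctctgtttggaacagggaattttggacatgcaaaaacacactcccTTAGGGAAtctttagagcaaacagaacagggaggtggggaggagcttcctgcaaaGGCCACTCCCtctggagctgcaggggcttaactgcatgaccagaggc
The C1ra window held 3 C/EBP matches and a STAT match from 33 to 41 bases past the start, and the C1s1 window held 2 C/EBP matches and 1 kappaB match.

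The neighbours moved with them. With TGFß1 the log2 fold-change was -1.97 for C1rl, a C1r-like protease (q = 0.000184), -2.65 for C1rb (q = 0.00021) and -2.96 for C1s2 (q = 0.00141). With TNFα none of the 3 was called (-0.32, -0.03 and 0.66). C1rb and C1s2 are near-identical copies of C1ra and C1s1, so that a probe of one may also bind the transcript of the other, and the 4 values cannot be counted as separate. C1rl is the more distant relative.

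**Figure D3:**
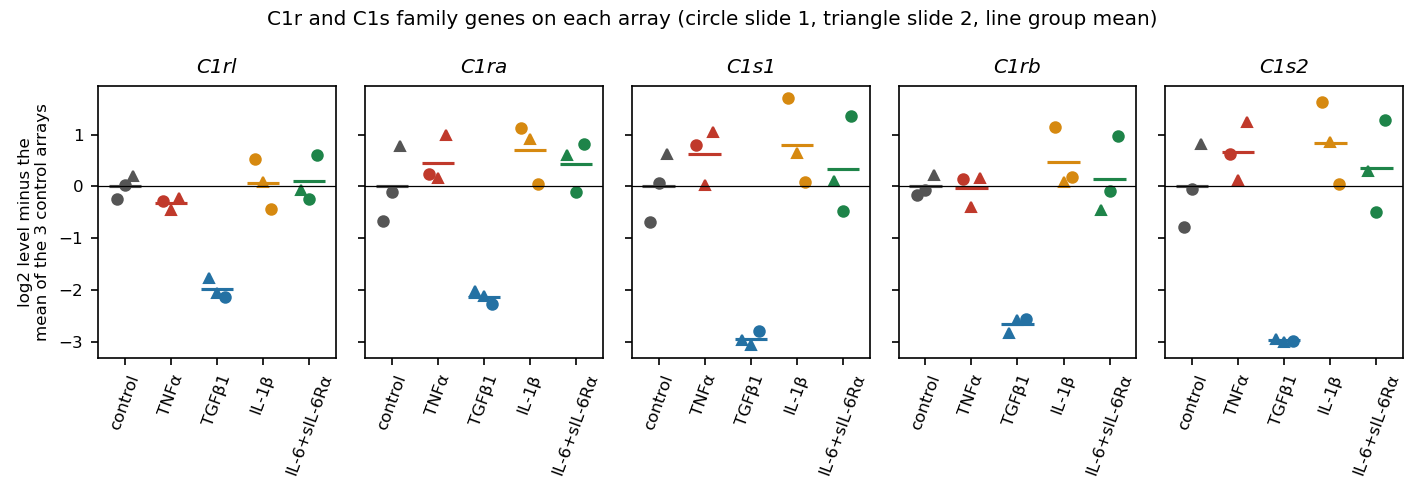
Level of 5 C1r and C1s family genes (y axis, log2 level minus the mean of the 3 control arrays of the same probe) on each array by group (x axis). Lines are group means, circles and triangles are slides 1 and 2. The 3 TGFß1 arrays lie below every other array in each panel, with means from -1.97 for C1rl to -2.96 for C1s2.

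C4b, the classical and lectin pathway component that C1s and MASP-2 cleave, was not called against control in any of the 4 comparisons. Its probe (A_66_P117032, NM_009780) read -2.59, -2.14 and -1.84 on control arrays 6, 1 and 11, and its log2 fold-change was -0.39 with TNFα (q = 0.287), -0.43 with TGFß1 (q = 0.178), 0.00 with IL-1ß (95% interval -0.47 to 0.47, q = 1.00) and 0.59 with IL-6/sIL-6Rα (95% interval 0.11 to 1.06, q = 1.00). IL-6/sIL-6Rα arrays 13, 3 and 8 read -1.93, -1.61 and -1.27, of which the first was below the highest control array. C4b was higher with IL-6/sIL-6Rα than with TNFα by 0.98 (q = 0.0121) and than with TGFß1 by 1.01 (q = 0.00588). The first of these calls was lost without IL-6/sIL-6Rα 8 (0.81, q = 0.0633) or TNFα 9 (0.80, q = 0.0549). The second C4b probe (A_51_P428708) was well above background on 7 arrays and was not tested. Its differences from control were -0.82 with TNFα, -0.90 with TGFß1, -0.38 with IL-1ß and -0.08 with IL-6/sIL-6Rα. It thus did not show the rise of the first probe with IL-6/sIL-6Rα. C4a, a near-identical copy of C4b, was well above background on no array.

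Cd55, decay-accelerating factor, which takes apart the C3 convertases on the cell's own surface, fell with both TNFα and TGFß1. The brightest of its 3 probes (A_55_P2101585, NM_010016) read 0.76, 1.25 and 1.59 on control arrays 11, 1 and 6. On TNFα arrays 14, 4 and 9 it read -1.28, -0.86 and -0.45. TGFß1 arrays 12, 7 and 2 read -1.60, -1.59 and -1.36. Neither treated group overlapped the control, and Cd55 fell by 2.06 with TNFα (SE 0.29, q = 0.000599), 4.18-fold, and fell by 2.71 with TGFß1 (SE 0.29, q = 5.41e-05), 6.56-fold. IL-1ß arrays 15, 5 and 10 read 0.61, 0.78 and 1.64, around the control values (-0.19, 95% interval -0.82 to 0.44, q = 1.00). IL-6/sIL-6Rα arrays 13, 3 and 8 read 0.31, 0.59 and 0.82 (-0.63, 95% interval -1.26 to 0.00, q = 1.00).

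The other 2 Cd55 probes gave -2.03 and -1.84 for TNFα and -3.30 and -2.54 for TGFß1, all called. Within slide 1 and slide 2 the fall was -2.28 and -2.24 with TNFα and -2.59 and -3.07 with TGFß1. Both IL-1ß and IL-6/sIL-6Rα were above TNFα, by 1.87 (q = 0.00247) and 1.43 (q = 0.00706). TNFα minus TGFß1 was 0.65 by the brightest probe (95% interval 0.02 to 1.28, q = 0.171, and 0.0120 with slide and run as blocks), 1.27 by the second (q = 0.0197, called) and 0.70 by the third (q = 0.196, and 0.0335 with the blocks). Without the blocks the probes thus disagree on the call, and with them all 3 were called. C3 and Cd55 thus moved in opposite directions with TNFα and in the same direction with TGFß1.

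The Cd55 promoter is shown as that of the member that fell with both cytokines (chr1:130462695-130462994, minus strand, RefSeq, GRCm38.p6, same window and capitals).
Cd55: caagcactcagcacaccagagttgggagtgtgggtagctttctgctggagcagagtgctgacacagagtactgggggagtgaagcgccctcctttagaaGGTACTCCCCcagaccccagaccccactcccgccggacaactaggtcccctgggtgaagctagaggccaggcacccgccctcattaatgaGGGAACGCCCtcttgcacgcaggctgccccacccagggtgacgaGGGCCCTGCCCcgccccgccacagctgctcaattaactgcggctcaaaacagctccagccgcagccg
It held 4 kappaB matches, of which those at -17 to -8 and -16 to -7 overlap, and no letters of the other 4 motifs. Its neighbour on chromosome 1 is Cd55b, a copy of close sequence whose probe could also bind Cd55 transcripts. Cd55b fell with TNFα by 2.22 (q = 0.00828) and was at least 8.78-fold lower with TGFß1 (q = 0.000192), on whose arrays its probe was not well above background.

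Masp1, a protease of the lectin pathway, and C3ar1, the receptor of the C3a fragment, were not tested. The brighter Masp1 probe (A_52_P216226) was well above background on 2 arrays, TNFα 4 at -4.45 and IL-1ß 5 at -4.63, and on the others it read -7.30 to -4.71. Its second probe (A_52_P54274) was on none. C3ar1 (A_51_P282557, NM_009779) read -7.16 to -5.16 and was well above background on no array, so that no order among the groups can be read.

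Between the treated groups, which differ in cytokine dose and perhaps in time, 25 of 42 member differences were called. With slide and run as blocks the count was 29, the added ones being those given above for Serping1 and Cd55, Cfb in IL-1ß against IL-6/sIL-6Rα (q = 0.0283, and 0.0489 by its second probe) and Serping1 in IL-6/sIL-6Rα against TGFß1 (q = 0.0265). This last call compares signals not well above background in either group, and no difference in Serping1 can be read from it. TNFα against TGFß1 gave 5 of 7, all higher with TNFα (C3, Cfb, C1ra, C1s1 and Serping1), against 11.8% of all probes in either direction. Serping1 entered the test only through the TNFα and IL-1ß arrays, where it is high. In this and the following counts each Serping1 call sets TNFα or IL-1ß against a group not well above background. IL-1ß against TNFα gave 2 of 7 (Cfb lower and Cd55 higher with IL-1ß), against 4.69%. IL-6/sIL-6Rα against TNFα gave 5 of 7 (C3, Cfb and Serping1 lower, C4b and Cd55 higher), against 8.59%. The contrast of IL-1ß with IL-6/sIL-6Rα gave only C3, 1 of 7, against 0.399%, and this call was lost without any 1 of 11 arrays (control 11, IL-1ß 10 or 15, IL-6/sIL-6Rα 3 or 13, or any TGFß1 or TNFα array), at 2.96 to 3.61 and q of 0.0530 to 0.182. IL-1ß against TGFß1 gave 6 of 7, all but C4b, against 16.9%, and IL-6/sIL-6Rα against TGFß1 gave 6 of 7, all but Serping1, against 16.3%. All of these were lower with TGFß1. The C3 call of the last comparison was lost without IL-6/sIL-6Rα 8 (2.18, q = 0.0514).

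The other genes of the complement system were read from a list of 46, of which 21 were tested. With TNFα, 1 of the 21 was higher and 4 were lower, against 4.09% and 5.96% of all tested probes, and the median was -0.07. The higher one was C5ar2, a receptor of C5a, with a log2 fold-change of 1.45 (SE 0.31, q = 0.00947), and it was not called without TNFα 4 (1.28, q = 0.0511). The convertase group held opposite changes. While Cfb rose, Cfd, the factor D that cleaves factor B, read 0.72, 0.83 and 1.81 in the control and -2.62, -2.21 and -2.10 with TNFα, without overlap, and fell by 3.43 (SE 0.51, q = 0.00092), 10.8-fold. Cfp, properdin, which stabilises the same convertase, fell by 0.62 (q = 0.0364), and its second probe gave -0.56 and was not called (q = 0.155). Without control 1, 6 or 11 or TNFα 4 or 9 the Cfp call was lost (q of 0.0692 to 0.150). Clu, clusterin, which binds the terminal complex, fell by 2.36 (q = 0.0345), a call lost without control 6 or 11 or any TNFα array (-1.79 to -2.51, q of 0.0628 to 0.118). Cd55b, given above, was the other, and may not be separate from the member Cd55. With slide and run as blocks Cfp fell short of the 1.5-fold threshold (-0.53), while Cd59a (-0.67, q = 0.00400) and Cd59b (-1.11, q = 0.00230), inhibitors of the terminal complex, were called lower. Without the blocks the second Cd59a probe gave -0.36 with TNFα and was not called (q = 0.497).

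With TGFß1, 1 of the 21 was higher and 7 were lower, against 7.51% and 10.4% of all tested probes, and the median was -0.32. The higher one was Cfi, factor I, the protease that inactivates C3b and C4b. It was well above background on the TGFß1 arrays only (-2.57, -2.25 and -1.69) and was at least 6.27-fold higher than in the control (q = 3.68e-06). Cfi thus entered the test only through the arrays where it is high, and its q-value rests on a control signal not well above background. The 5 largest falls were those of Cd55b, C1s2, C1rb and C1rl, given above, and of C8g, a subunit of C8, which fell by 1.82 (q = 0.00023). The probes of Cd55b, C1s2 and C1rb may also bind transcripts of the members Cd55, C1s1 and C1ra. The counts of the list, in all and by role, are therefore not separate from those of the members. By role, the falls were 3 of 6 tested initiating components, 1 of 2 terminal components and 3 of 5 membrane regulators, and none of the 4 tested receptors was called. The smallest of these falls, Cd59a, named after its values were seen, was lost without any 1 of 11 arrays (every control and TGFß1 array, IL-1ß 5, IL-6/sIL-6Rα 3 or 13, TNFα 4 or 14), at -0.58 to -0.77 and q of 0.0514 to 0.157. The second Cd59a probe gave -0.41 with TGFß1 and was not called (q = 0.351). With slide and run as blocks Cfd (-1.04, q = 0.00432) and the C3d receptor gene Cr2 (-0.72, q = 0.00245) were also called lower and C5ar2 (0.63, q = 0.00441) higher. With IL-1ß and with IL-6/sIL-6Rα, limma called 0 of the 21. Of all tested probes it called 0.228% and 0.058% higher and 0.00341% and 0% lower, so that few calls would be met in any list. In each comparison 1 gene of the list had an unadjusted p below 0.05, as had 1060 and 934 of the 29333 probes. The medians of the list were 0.04 and -0.11.

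**Figure D4:**
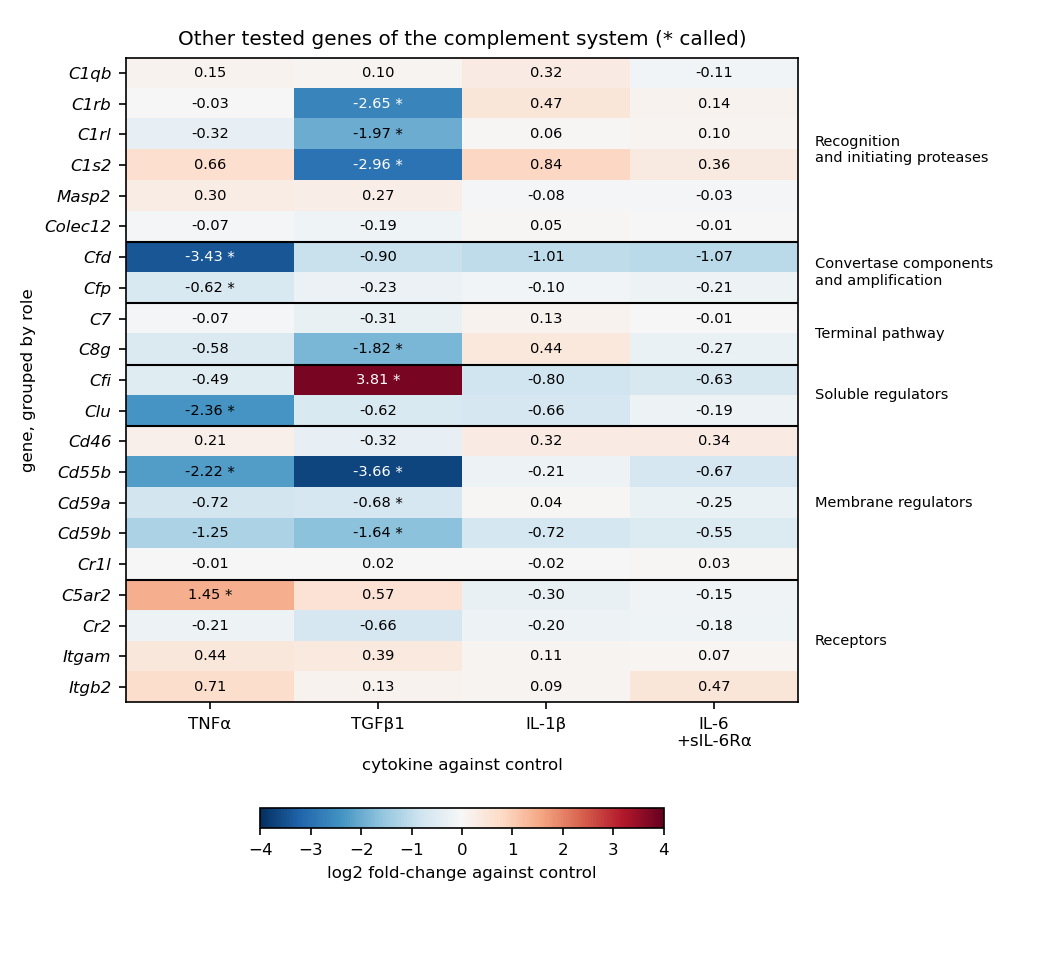
Log2 fold-change against control (colour and printed value) of the 21 tested genes of the complement list (rows, grouped by role) for each cytokine (columns), with a star where called. Cfd stands at -3.43 with TNFα, the Cfi values and the Cd55b value with TGFß1 rest on a group not well above background, and the IL-1ß and IL-6/sIL-6Rα columns hold no star.

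Over the 15 arrays the members fell into a few shared patterns, given as Pearson r over arrays that lie in 5 groups of 3, as a description. C1ra and C1s1 had r = 0.975 with each other, Cfb and Serping1 0.942, and C3 and Cfb 0.917, whereas Cd55 had 0.32 with C3 and 0.07 with Cfb. Among all tested genes the 3 nearest to C3 were Saa3, an acute-phase serum amyloid A (r = 0.966), Tlr2, a receptor for bacterial lipoproteins (0.961), and Cpeb3 (0.959). Nearest to Cfb were Ampd3 (0.977), Ch25h, cholesterol 25-hydroxylase (0.961), and Ccrl2 (0.956), and nearest to Serping1 were Slc15a3 (0.954), Ch25h (0.946) and Cfb itself (0.942). The Serping1 probe was well above background on only 6 of the 15 arrays, so its r values rest in part on dim signal. For C1ra they were C1s2 (0.989), C1s1 (0.975) and Bst1 (0.955), and for C1s1 they were C1s2 (0.996), C1ra (0.975) and C1rb (0.969). Probes of C1s1 and C1s2, and of C1ra and C1rb, may bind each other's transcripts, as given above, so these patterns are not separate. Cd55 lay nearest to Iffo1 (0.981), Emilin2 (0.974) and Gng7 (0.971), and C4b to Azin2 (0.926), Il2rb (0.921) and Nek6 (0.919).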

How the data were processed

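Total RNA of the 15 cultures was hybridised to one-colour Agilent arrays (62976 spots), and the submitters' processing notes name Agilent Feature Extraction 10.7.3.1. The deposited scanner files hold processed spot intensity, background-subtracted by the authors' scanner software; the deposited value table holds the same intensities (largest difference 0). Here, control spots and spots marked as outliers were left out, spots of a probe were averaged (56605 probes, 33767 with a symbol, 0 saturated spots), log2 was taken and the 75th percentile of each array subtracted. A probe was tested when well above background, on at least 0.5 of its spots, on every array of at least 1 group. limma 3.58.1 in R 4.3.3 was fitted to all 15 arrays without covariates, after the study's methods, with two-sided moderated tests of 10 contrasts and Benjamini-Hochberg adjustment.

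The members and lists were chosen with earlier results of these data known. The text names every member with all its probes, of the list of 46 complement genes the called ones (up to the 5 largest changes per comparison), and the 3 genes of highest Pearson r with each tested member. Of 4 endothelial markers Cdh5, Kdr and Tek were well above background on no array and Pecam1 on all. The methods describe 3 independent experiments, and no label ties an array to one. The numbers that open the labels form runs of 5 (1 to 5, 6 to 10, 11 to 15), each with 1 array per group; with group means and slide removed, all 30 pairs of arrays of one run deviated together (r = 0.11 to 0.67), and with group means alone removed 12 of 30 did so at r over 0.1. Alternatives changed the scaling, background correction (normexp, offset 50, on the median signal), filter, probe rule, variance prior, thresholds, blocks and arrays; the percentile of the scanner software was added after the data were seen. Scripts were tested on simulated data. The number of arrays limits the precision, and p-values measure only the spread between these arrays. Gene order and promoters come from RefSeq tables, in which 5 of the 9 members had a promoter.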

Additional observations from a re-analysis of the deposited data

How the results depend on the processing

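For the 53 member differences followed over 30 alternative settings, 1470 values had the direction and call given above, 53 lost the call, 4 gained it and 13 turned direction. The 53 are the differences of tested members against control and the called ones between treated groups. Uncalled differences between treated groups were not followed, so calls gained there, given above for slide and run as blocks, are not in this count. The IL-6/sIL-6Rα count was 0 under every alternative run. Members called with TNFα fell to 2 where a probe had to be well above background on all arrays, since Cfb and Serping1 are then not tested, and those called with IL-1ß to 1. Without a filter on dim probes the IL-1ß count was 0, with C3 at q = 0.0586 and Cfb at q = 0.0825. With slide and run as blocks it was 4, adding C1ra (q = 0.0420) and Serping1 (q = 0.0461), and Cfb was called lower with TGFß1 (q = 0.0484). With slide alone as a block no count against control changed. Leaving out 1 array at a time gave 0 to 2 members for IL-1ß, 3 to 5 for TGFß1, 4 for TNFα, 0 for IL-6/sIL-6Rα and 22 to 27 of the differences between treated groups. The labels give every array a number of its own, so arrays were paired through the runs of numbers alone, in the fit with slide and run as blocks.

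The values that turned direction were uncalled in the fit given above and when turned. C4b with IL-1ß, at 0.00, became -0.0215 by quantile normalization, -0.0855 with the median subtracted, -0.0528 with normexp and -0.0018 with marked spots kept. Leaving out 1 array at a time, C4b with IL-1ß ran from -0.198 to 0.176, negative without control 6 or IL-1ß 10 or 15. Cd55 with IL-1ß ran from -0.501 to 0.0106, positive without control 6 or IL-1ß 15, and Serping1 with TGFß1 from -1.13 (then called, without control 1) to 0.0082 (without control 6). The Serping1 probe was not well above background on any control or TGFß1 array, so neither that call nor that direction can be read. With IL-6/sIL-6Rα, C3 ran from -0.168 (without array 8) to 0.916 and C1s1 from -0.178 (without array 8; also negative without control 1) to 0.73. With normexp, Serping1 in IL-1ß against TGFß1 (0.44) and Cfb in IL-6/sIL-6Rα against TGFß1 (0.87, q = 0.0887) were no longer called. The 13 called changes of the other complement genes, followed after the data were seen, lost their call in 38 of their values, turned in 0, and of these Cfp with TNFα fell short of the 1.5-fold threshold with slide as a block (-0.52). The causes of these changes were not tested.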
